A study of Mus musculus with 6 samples.

Results

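Lysosome genes were followed in epididymal white adipose tissue of mice on 3 diets: 50 protein-coding genes of the 48897 genes in the deposited table. They comprise 22 subunit genes of the vacuolar proton pump, taken by name (Atp6v0 and Atp6v1), and 28 genes for pump accessory proteins, lysosomal membrane proteins, hydrolases and their activators, and 2 transcription factors. The rule names genes and uses no measured value, but it was drawn up with earlier results of these data known. All 50 passed the filter on low counts. Each of the 3 groups had 2 libraries, numbered replicate 1 and replicate 2, from wild-type C57BL/6 mice aged 35 weeks. Feeding with a purified diet of 10% (low-fat) or 60% (high-fat) of calories as fat began at 6 weeks of age. The code F-L is taken to mean low-fat diet throughout and F-H high-fat diet throughout. F-H-L is taken to mean a cycled diet, in which 9 weeks on high fat were followed by 10 rounds of alternation, with 1 week on low fat and 1 on high fat in each. Only the letters of the codes link them to the diets. Separate mice are not named as the source of the libraries, so p-values here describe spread among libraries and part of it may be technical.

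The lysosome is the acidic organelle in which a cell digests proteins, lipids and glycans taken up from outside or delivered by autophagy. The vacuolar ATPase acidifies it: a cytosolic V1 sector hydrolyses ATP and drives rotation of the membrane sector V0, through which protons pass. Several subunits exist in alternative versions that are used by different cell types. Transcription factors of the MiT/TFE family, Tfeb and Mitf among them, bind an E-box-like element, the CLEAR element, in the promoters of many lysosomal genes. In obese fat, macrophages around dying adipocytes take up lipid and carry abundant lysosomes.

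Among RefSeq promoters (build GRCm38.p6; 250 bases before to 50 after a transcription start), 43 of the 50 genes had an entry. The E-box CACGTG, which reads the same on both strands, was found in 11 of these 43 (25.6%), against 8.09% of the 27025 genes in the promoter table. The longer TCACGTG, which contains that E-box and was searched on both strands, was found in the same 11 genes (25.6%), against 4.29% of all. The palindrome TCACGTGA was found in 5 (11.6%), against 1.12% of all, and the same palindrome with a G before it and a C after it in none of the 43, against 0.370% of all. The 11 genes were Atp6v0b, Atp6v0d1, Atp6v0e, Atp6v1a, Gaa, Gla, Glb1, Lamp1, Lgmn, Mcoln1 and Naglu. Windows of 100 bases before the start are shown for 6 of them as examples: Lamp1, Mcoln1, Atp6v0b and Gla carry several copies, Lgmn and Gla had the highest log2 fold changes of the 11 in F-H over F-L, and Atp6v1a encodes the catalytic pump subunit. They run 5′ to 3′ on the gene's strand, with CACGTG in capitals.

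Lamp1: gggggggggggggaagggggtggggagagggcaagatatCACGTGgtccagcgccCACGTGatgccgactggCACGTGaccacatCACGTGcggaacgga

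Mcoln1: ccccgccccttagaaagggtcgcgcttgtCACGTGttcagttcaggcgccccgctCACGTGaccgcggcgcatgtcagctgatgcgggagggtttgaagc

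Atp6v0b: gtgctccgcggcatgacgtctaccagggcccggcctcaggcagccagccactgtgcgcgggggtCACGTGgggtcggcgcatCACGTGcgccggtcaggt

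Lgmn: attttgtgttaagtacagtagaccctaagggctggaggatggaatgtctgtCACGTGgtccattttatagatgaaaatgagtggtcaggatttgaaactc

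Atp6v1a: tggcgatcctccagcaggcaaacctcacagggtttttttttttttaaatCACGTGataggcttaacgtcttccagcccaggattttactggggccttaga

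Gla: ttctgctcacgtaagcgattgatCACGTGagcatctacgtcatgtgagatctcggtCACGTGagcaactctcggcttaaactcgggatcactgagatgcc

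The Lamp1 window (chr8:13159061-13159160, plus strand) holds 4 copies and ends at the base before the start. Those of Mcoln1 (chr8:3500419-3500518, plus strand) and Atp6v0b (chr4:117887330-117887429, minus strand) hold 2 copies each in the same stretch. The Lgmn window (chr12:102439093-102439192, minus strand) precedes 1 of the 2 listed starts of that gene and holds 1 copy. The Atp6v1a window (chr16:44139340-44139439, minus strand) lies farther upstream, and the Gla window (chrX:134601156-134601255, minus strand), with 2 copies, lies farthest from the start of the 6, at the far end of the promoter entry.

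Libraries held 41091012 to 49230161 counts. Macrophage markers, 18 genes without Cd68, summed to 516 and 1165 CPM (a count relative to the library size, which was adjusted by the TMM method) in F-L, 16890.5 and 8970.3 under F-H, and 2208 and 1852 under F-H-L. Adipocyte markers (20 genes) were present in all libraries, at 3808 summed CPM under F-L replicate 1 and 19226 to 52367 in the other libraries. The 14 epididymis principal cell markers in the table held 1.69% and 0.396% of F-L counts, 0.000492% and 0.0508% of F-H counts, and 0.167% and 0.135% of F-H-L counts. For the 12 markers of testis germ cells the share was 0.640% of counts in F-L replicate 2 and no more than 0.0559% in any other library. F-L replicates were therefore unlike each other: 17 of the 50 lysosome genes differed more than 2-fold between them, against 3 under F-H and 4 under F-H-L. The share of all genes that differed as much was not computed, so these counts cannot be read as particular to lysosome genes.

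**Figure D1:**
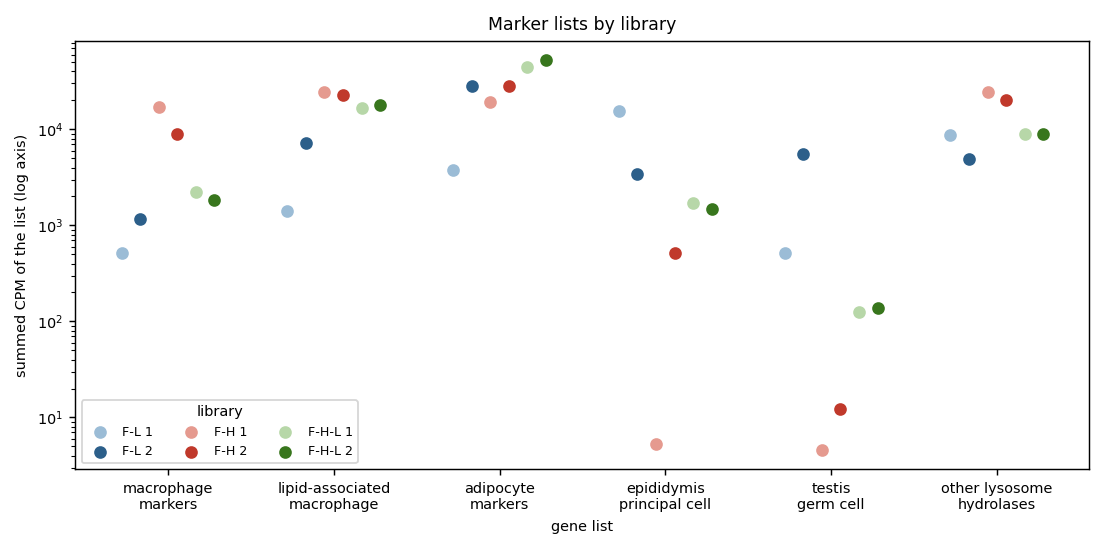
Summed CPM (log axis) of 6 gene lists, with 1 point per library. Macrophage markers are highest in the 2 F-H libraries, epididymis markers in F-L replicate 1 and testis markers in F-L replicate 2.

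Setting F-H against F-L asked what the unbroken high-fat diet changed. 3 of the 50 lysosome genes rose by edgeR's quasi-likelihood test at an adjusted p under 0.05, namely Cd68, Laptm5 and Gla, and none fell. Over all 22289 genes tested, 0.866% were called, 0.615% higher and 0.251% lower. The median log2 fold change was 1.003 over the 50 genes and -0.12 over all genes. In 33 of the 50 (66%) both F-H libraries lay above both F-L libraries, and in 7 (14.0%) both lay below, against 27.0% and 28.8% of all genes. The 7 were all proton pump subunits: Atp6v0a4, Atp6v0e2, Atp6v1b1, Atp6v1c2, Atp6v1e2, Atp6v1g1 and Atp6v1g3. Markers of several cell types were also higher in F-H by log2 fold change: 18 of 18 for macrophages (median 3.97), 10 of 10 for T and NK cells (3.88), 8 of 8 for mast cells (3.82) and 11 of 12 for adipose progenitors (1.83). Higher too were 12 of 12 tested lipid-associated macrophage (4.07), 10 of 10 endothelial (0.85) and 16 of 20 adipocyte markers (0.65). Both F-H libraries lay above both F-L libraries in 12, 1 and 6 of them. All 12 testis germ cell markers and 5 of 6 epididymal clear and narrow cell markers were lower (medians -9.02 and -4.87). Epididymis principal cell markers were mixed, with 8 of 13 tested lower and 5 higher (median -3.45). The part of these cell types in the differences was not tested. In bulk tissue, fewer cells of a type and less RNA per cell cannot be told apart.

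The number of calls moved with the settings. edgeR called 0 of the 50 with median-ratio size factors, with only the 4 libraries of both groups, or with replicate number as a block. In each of these settings it also called 0.00% of all genes tested. DESeq2 called 28, of which 23 were higher (of all genes DESeq2 called 24.5%, with 7.62% higher and 16.9% lower). With 1 library left out at a time, the median log2 fold change of the 50 ran from 0.92 to 1.21. With libraries scaled to the 20 adipocyte genes, the median was -0.91 over the lysosome genes and -2.01 over all genes, so that they stood 1.10 above all genes, against 1.12 under TMM.

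**Figure D2:**
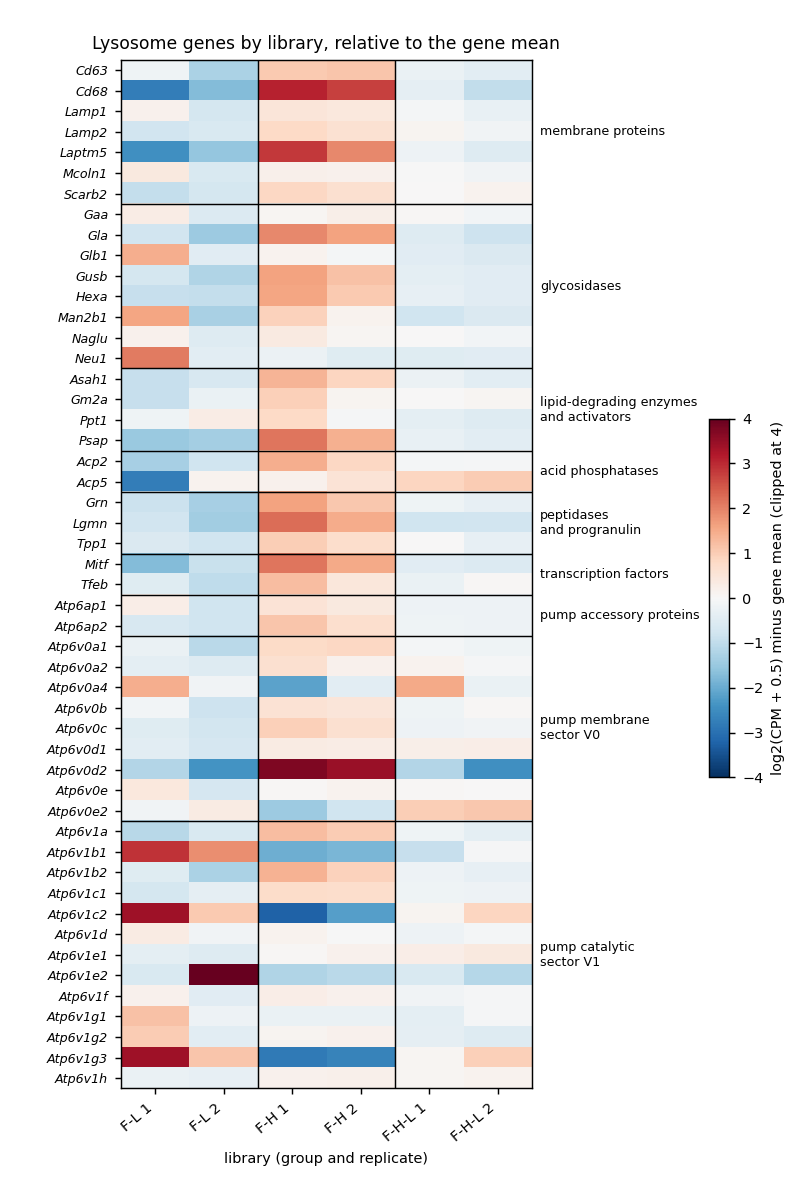
Log2(CPM + 0.5) of the 50 lysosome genes minus each gene's mean over the 6 libraries, by role; red is above and blue below that mean, with colours clipped at 4. Most rows are red in both F-H libraries, while Atp6v1b1, Atp6v1c2 and Atp6v1g3 are blue there and red in F-L replicate 1.

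The lysosomal membrane proteins included the widest called difference. Cd68, the macrophage relative of the LAMP proteins (Entrez 12514, mm10 chromosome 11, 69664213 to 69666170), was at 11.7 and 24.4 CPM under F-L, 694 and 554 CPM under F-H, and 64.0 and 41.4 CPM under F-H-L. The 3 groups did not overlap, and F-H-L lay between the others. It rose in F-H over F-L with a log2 fold change of 5.11 ± 0.54 (SE, n = 2 per group, edgeR adjusted p = 0.0447). Laptm5, a lysosomal membrane protein of blood-derived cells (Entrez 16792, chromosome 4, 130912890 to 130936148), was at 21.2 and 40.5 CPM under F-L, 844 and 449.6 CPM under F-H, and 103 and 82.6 CPM under F-H-L. It had the same order without overlap, and rose by 4.39 ± 0.55 under F-H over F-L (log2, SE, edgeR adjusted p = 0.0480). Adgre1, the macrophage antigen F4/80, stood beside them at 11.6 and 34.1 CPM, 1310.1 and 562 CPM, and 75.4 and 43.8 CPM.

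The membrane proteins found on lysosomes of most cell types differed less. Lamp1, a main structural glycoprotein of the lysosomal membrane, was at 929 and 499 CPM under F-L, 1137 and 1100.0 under F-H, and 778 and 672 under F-H-L. The F-H libraries were the highest, but the gap to F-L replicate 1 was smaller than that between the F-L libraries (log2 fold change 0.65 ± 0.44, SE, edgeR adjusted p = 0.385). Lamp2, which also serves in autophagy, was at 176 and 199 CPM, 525 and 464 CPM, and 325 and 273 CPM in the same order of groups, with no overlap (1.40 ± 0.30, edgeR adjusted p = 0.0761). Scarb2, the receptor that carries glucocerebrosidase to lysosomes, was at 88.5 and 105 CPM under F-L, 306 and 268 CPM under F-H and 173 and 186 CPM under F-H-L, again without overlap. Cd63, a tetraspanin of late endosomes, was at 341 and 162 CPM under F-L, 800.0 and 828 CPM under F-H and 319 and 287 CPM under F-H-L, where the F-L and F-H-L ranges overlapped. Mcoln1, the calcium channel of the lysosomal membrane, ran from 26.4 to 53.7 CPM with both extremes in F-L.

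Both transcription factors were higher in F-H. Mitf was at 4.19 and 7.98 CPM under F-L, 68.3 and 44.2 CPM under F-H, and 11.0 and 10.1 CPM under F-H-L, so that the groups did not overlap. Its log2 fold change in F-H over F-L was 3.21 ± 0.47 (SE) and did not pass (edgeR adjusted p = 0.0524). Tfeb was at 17.9 and 12.3 CPM under F-L, 60.2 and 34.9 CPM under F-H, and 20.9 and 25.9 CPM under F-H-L, with the same order and a smaller log2 fold change of 1.66 ± 0.40 (SE, edgeR adjusted p = 0.0853). Both were higher in F-H replicate 1 than in replicate 2, as were 36 of the 50 lysosome genes and the macrophage marker sum. In F-L, 35 of the 50 were higher in replicate 1 too, while the macrophage marker sum was lower there (516 against 1165 CPM). In F-H-L, 29 of the 50 were higher in replicate 1, and the sum was 2208 against 1852 CPM. The share of all genes higher in replicate 1 was not computed.

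The glycosidases, which trim sugars from glycans and glycolipids, were divided. Gla, the alpha-galactosidase that is deficient in Fabry disease (Entrez 11605, chromosome X, 134588169 to 134601005), was at 12.3 and 7.41 CPM under F-L, 81.1 and 65.4 CPM under F-H, and 14.8 and 11.7 CPM under F-H-L. The F-H libraries stood apart, and the F-L and F-H-L ranges overlapped. It rose by 2.89 ± 0.38 under F-H over F-L (log2, SE, n = 2 per group, edgeR adjusted p = 0.0486). Hexa, the alpha chain of beta-hexosaminidase, was at 121 and 118 CPM under F-L, 683 and 478 CPM under F-H, and 182 and 168 CPM under F-H-L. Gusb, beta-glucuronidase, was at 80.5 and 56.2 CPM under F-L, 398 and 294 CPM under F-H, and 101 and 95.7 CPM under F-H-L. Neither passed (log2 fold changes of 2.28 ± 0.33 and 2.34 ± 0.33, SE, edgeR adjusted p = 0.0523 and 0.0520), though the 3 groups did not overlap for either.

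The other 5 glycosidases had overlapping F-L and F-H ranges. 3 of them stood far apart in F-L replicate 1, the library with the most epididymis transcripts: the alpha-mannosidase Man2b1 at 961 CPM against 131 under F-L replicate 2, the sialidase Neu1 at 382 against 67.9 CPM, and the beta-galactosidase Glb1 at 217 against 57.2 CPM. In F-H these 3 were at 608 and 351 CPM, 76.6 and 63.9 CPM, and 87.7 and 74.1 CPM. Their log2 fold changes in F-H against F-L were -0.19 ± 0.89, -1.68 ± 0.77 and -0.76 ± 0.61 (SE, edgeR adjusted p = 0.912, 0.214 and 0.459). The acid alpha-glucosidase Gaa ran from 89.7 to 161 CPM and the alpha-N-acetylglucosaminidase Naglu from 40.8 to 76.7 CPM over all 6 libraries.

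Genes of lipid degradation were led by Psap. Psap encodes prosaposin, the precursor of the saposins that present sphingolipids to their hydrolases (Entrez 19156, chromosome 10, 60277628 to 60302600). It had the highest level per length of the 50 genes in every library but F-L replicate 1, where Lamp1 led, reaching 3973 and 2556 RPKM (the deposited values, scaled to gene length and library total) in F-H. In CPM it was at 953 and 1022 under F-L, 11767 and 7090.2 under F-H, and 2152 and 1961 under F-H-L, with no overlap between groups (log2 fold change in F-H over F-L 3.26 ± 0.64, SE, edgeR adjusted p = 0.0711). The acid ceramidase Asah1 was at 65.3 and 78.8 CPM, 315 and 226 CPM, and 104 and 92.5 CPM under F-L, F-H and F-H-L. The GM2 activator Gm2a was lower in every F-L library (122 and 197 CPM) than in F-H (454 and 253 CPM) and F-H-L (239 and 249 CPM). The palmitoyl-protein thioesterase Ppt1 ran from 58.4 to 148 CPM with overlap of F-L and F-H. It overlaps Cap1 on the other strand, which reached 23496 counts, against at most 6698 for Ppt1, so reads may not be separated.

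Lgmn encodes legumain, an asparaginyl endopeptidase that matures cathepsins (Entrez 19141, chromosome 12, 102394082 to 102439808). It was at 145 and 93.6 CPM under F-L, 1168 and 688 CPM under F-H, and 143 and 145 CPM under F-H-L. Both F-H libraries were far above all others, and the F-H-L libraries lay close to F-L replicate 1 (log2 fold change in F-H over F-L 2.96 ± 0.44, SE, edgeR adjusted p = 0.0524). Grn, which encodes progranulin, was at 222 and 160.2 CPM under F-L, 1223 and 844 CPM under F-H, and 357 and 319.7 CPM under F-H-L. The tripeptidyl peptidase Tpp1 was at 101.0 and 86.6 CPM, 304 and 251 CPM, and 155 and 120.1 CPM. Both had the order F-L, F-H-L, F-H without overlap.

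The acid phosphatases went apart. Acp2, the lysosomal acid phosphatase, was at 28.5 and 41.0 CPM under F-L, 199 and 128 CPM under F-H, and 68.4 and 70.0 CPM under F-H-L (log2 fold change in F-H over F-L 2.23 ± 0.35, SE, edgeR adjusted p = 0.0551). Acp5, the tartrate-resistant phosphatase of osteoclasts and some macrophages (Entrez 11433, chromosome 9, 22126727 to 22135746), was instead highest in F-H-L, at 249 and 277 CPM, against 155 and 202 CPM under F-H and 19.6 and 152 CPM under F-L. The 3 groups did not overlap, but F-L replicate 2 reached 152 CPM, close to F-H replicate 1, and no difference passed (edgeR adjusted p = 0.350 for F-H-L over F-L, 0.475 for F-H over F-L and 0.830 for F-H-L against F-H). Acp2 overlaps Nr1h3 and Ddb2 on the other strand, and the strand setting of the counting is not given in the sources used here, so reads of these genes may not be separated.

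The general subunits of the proton pump did not move as a block. Among the V1 subunits, the catalytic subunit Atp6v1a was at 85.3 and 121 CPM under F-L, 432 and 373 CPM under F-H, and 163 and 138 CPM under F-H-L. Atp6v1b2, the non-catalytic nucleotide-binding subunit found in most tissues, was at 172 and 102 CPM, 632 and 457 CPM, and 211 and 194 CPM. Atp6v1c1, of the stalk that joins the sectors, was at 50.6 and 63.8 CPM, 138 and 135 CPM, and 72.9 and 72.2 CPM. These 3 showed the order F-L, F-H-L, F-H without overlap, with log2 fold changes of 1.97 ± 0.32, 1.99 ± 0.39 and 1.25 ± 0.25 under F-H over F-L (SE, edgeR adjusted p = 0.0590, 0.0711 and 0.0711).

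For other V1 subunits of the same complex the log2 fold change in F-H over F-L was below that of these 3. Atp6v1d ran from 72.7 to 105 CPM, Atp6v1f from 67.5 to 111 CPM and Atp6v1h from 84.4 to 121 CPM over the 6 libraries. The groups of Atp6v1h did not overlap, and nor did those of Atp6v1e1. Atp6v1e1 was highest in F-H-L, at 210.2 and 228 CPM against 181 and 196 CPM under F-H and 133 and 120.4 CPM under F-L. Atp6v1g1 stood at 320.5 CPM under F-L replicate 1 and between 108 and 135 CPM elsewhere. The subunits of 1 complex thus spanned log2 fold changes from -0.92 (Atp6v1g1) to 1.99 (Atp6v1b2) in F-H over F-L, before the alternative subunits with restricted expression are counted.

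In the V0 sector, the proton-conducting ring subunit Atp6v0c was at 99.7 and 84.8 CPM under F-L, 272 and 219 CPM under F-H, and 124 and 127 CPM under F-H-L. The large subunit Atp6v0a1 was at 163 and 92.8 CPM, 332 and 353 CPM, and 186 and 176 CPM, and its alternative Atp6v0a2 at 47.6 and 43.5 CPM, 98.1 and 70.8 CPM, and 69.3 and 59.8 CPM. None of the 3 passed (edgeR adjusted p = 0.0687, 0.0889 and 0.110 for F-H over F-L), though the groups did not overlap. The ring subunit Atp6v0b was higher in both F-H libraries (209 and 198 CPM) than in F-L (132 and 79.4 CPM), and Atp6v0e ran from 107 to 229 CPM with both extremes in F-L. Atp6v0c has a transcribed pseudogene in the table, Atp6v0c-ps2, with 181 to 614 counts, whose reads may be shared with it. The accessory protein Atp6ap2, also known as the prorenin receptor, was at 48.1 and 43.0 CPM, 161 and 119 CPM, and 66.3 and 64.7 CPM, without overlap, whereas Atp6ap1 was at 215 and 104 CPM under F-L against 263 and 238 CPM under F-H and 155.2 and 155.4 CPM under F-H-L.

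Alternative pump subunits went in opposite directions. Atp6v0d2 encodes the version of the d subunit known from osteoclasts and macrophages (Entrez 242341, chromosome 4, 19876838 to 19922566). It was at 9.51 and 3.78 CPM under F-L, 303 and 249 CPM under F-H, and 9.54 and 3.60 CPM under F-H-L. Both F-H libraries were far above all others, and the F-L and F-H-L ranges overlapped almost wholly. Its log2 fold change in F-H over F-L, 5.38 ± 0.74 (SE), was the highest of the 50 and missed the threshold (edgeR adjusted p = 0.0501). Its partner Atp6v0d1, used in most cells, was at 74.5 and 62.9 CPM, 125 and 122 CPM, and 117 and 119.6 CPM, so that F-H and F-H-L differed by less than the SE (log2 fold change of F-H-L against F-H -0.06 ± 0.24). Per length, Atp6v0d2 made up 48.9% and 44.7% of the RPKM of the d pair for F-H, 4.81% and 2.32% for F-L, and 3.13% and 1.18% for F-H-L. Alternative subunits are compared here in RPKM because their lengths differ.

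**Figure D3:**
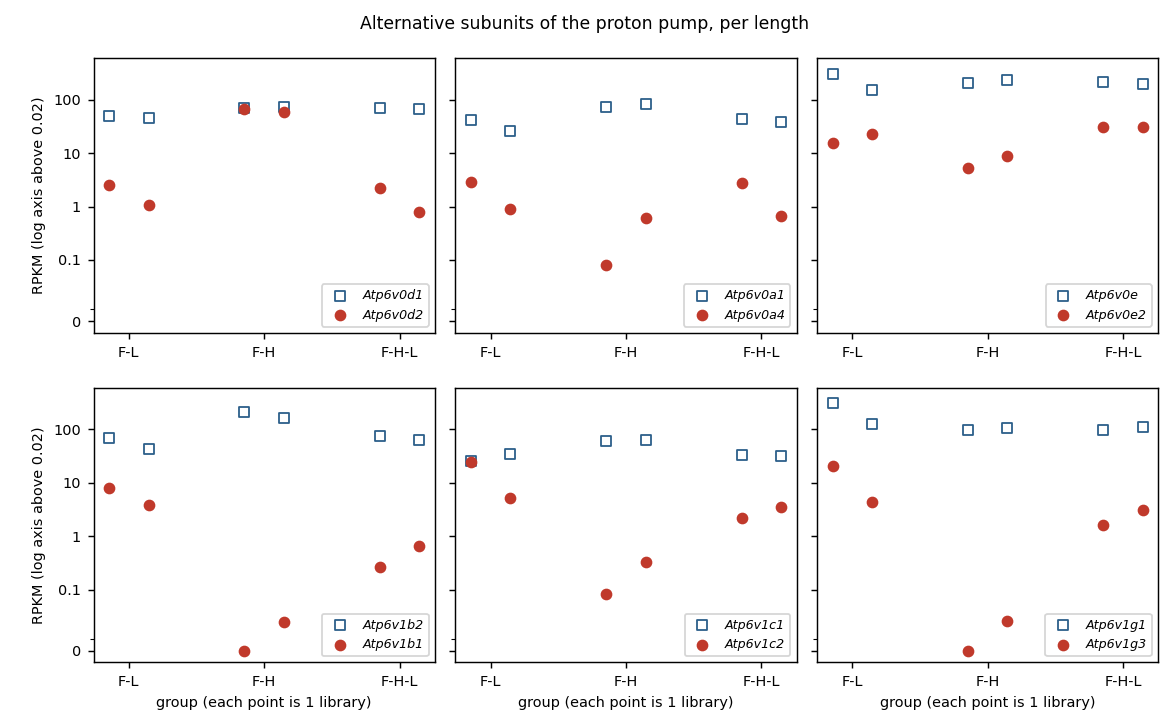
RPKM of 6 pairs of alternative pump subunits by group, with 1 point per library on an axis that is logarithmic above 0.02 and linear down to 0. Atp6v0d2 reaches the level of Atp6v0d1 only in F-H, whereas Atp6v1b1, Atp6v1c2 and Atp6v1g3 are lowest in F-H and highest in F-L replicate 1.

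A set of other alternative subunits went the opposite way. Atp6v1b1, the B subunit of acid-secreting cells of the kidney, inner ear and epididymis, had 619 and 363 counts in F-L, 0 and 2 under F-H, and 23 and 55 under F-H-L. Atp6v1g3, a G subunit best known from kidney, had 1608 and 396 counts in F-L, 0 and 2 under F-H, and 140 and 253 under F-H-L. With so few F-H counts, the F-L level was 424 times that of F-H for Atp6v1b1 (95% exact interval 117 to 3509) and 866 times for Atp6v1g3 (239 to 7157), intervals that cover counting error only. Atp6v1c2 was at 78.7 and 15.1 CPM under F-L, 0.308 and 1.14 CPM under F-H, and 7.71 and 13.2 CPM under F-H-L, and it overlaps the much more abundant Pdia6 on the other strand. None of the 3 passed in F-H against F-L (edgeR adjusted p = 0.0611, 0.0595 and 0.0696), and for each the groups did not overlap, with F-H-L between F-H and F-L.

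The levels of these subunits stood beside those of epididymal genes. Foxi1, a transcription factor of the epididymal cells that secrete protons, was at 19.9 and 3.26 CPM under F-L, 0 and 0.0484 CPM under F-H, and 0.936 and 2.09 CPM under F-H-L, and Crisp1, a secreted protein of the epididymal duct, at 10543 and 2502 CPM, 2.53 and 391 CPM, and 1269 and 1082 CPM. Crisp1 does not stand for its whole list: Gpx5, another principal cell gene, had a log2 fold change of 2.38 ± 2.42 in F-H over F-L (SE, edgeR adjusted p = 0.564). The 6 markers listed for epididymal clear and narrow cells summed to 692 and 356 CPM under F-L and 154 to 188 CPM in the other libraries, with Foxi1 at 0 under F-H replicate 1. Foxi1 does not stand for all of them either. Of the 6 markers, 5 were lower in F-H than in F-L by log2 fold change. Slc4a2 was higher, at 55.8 and 54.9 CPM under F-L and 91.1 and 91.1 CPM under F-H. Adcy10 was higher in F-L replicate 2 than in F-L replicate 1, the reverse of Foxi1. The part of epididymal cells in the pump values was not tested.

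Atp6v1e2, the E subunit of the sperm acrosome, had 13 and 1648 counts in F-L, 1 and 3 under F-H, and 13 and 2 under F-H-L, and so was abundant in F-L replicate 2 alone. The protamine gene Prm2, a marker of late sperm cells, stood beside it at 103 and 1371 CPM under F-L, 0.463 and 2.35 CPM under F-H, and 30.6 and 37.5 CPM under F-H-L. Atp6v0a4, the a subunit of acid-secreting epithelia, was below both F-L libraries in both F-H libraries, while F-H-L overlapped F-L: it was at 8.90 and 2.61 CPM under F-L, 0.286 and 2.06 CPM under F-H, and 9.33 and 2.39 CPM under F-H-L. It overlaps D630045J12Rik and Tmem213, of which the higher reached 1787 counts, against at most 409 for Atp6v0a4, so reads may not be separated. Atp6v1g2, a neuronal G subunit that overlaps Nfkbil1, stayed between 2.06 and 6.82 CPM.

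Atp6v0e2, an alternative of the small e subunit (Entrez 76252, chromosome 6, 48537569 to 48541801), had a pattern of its own. It was highest in F-H-L at 58.7 and 62.1 CPM, lower in F-L at 26.6 and 37.0 CPM, and lowest in F-H at 10.5 and 16.7 CPM. Its groups did not overlap, and it was the only 1 of the 50 with that order without overlap, which 0.902% of all genes shared. The log2 fold change of F-H-L against F-H was 2.15 ± 0.36 (SE) and did not pass (edgeR adjusted p = 0.239). Adipocyte marker sums had F-H-L highest as well, at 44793 and 52367 CPM, against 19226 and 28105 CPM under F-H and 3808 and 28392 CPM under F-L. Endothelial marker sums (10 genes) had it highest too, at 1258 and 1743 CPM, against 655 and 1085 CPM for F-H and 218 and 716 CPM for F-L. The part of both cell types in the Atp6v0e2 values was not tested.

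The comparison of F-H-L with F-H asked how diet cycling differed from continuous high-fat feeding. In 40 of the 50 genes (80.0%) both F-H-L libraries lay below both F-H libraries, and in 7 (14.0%) both lay above, against 25.6% and 35.6% of all genes tested. The median log2 fold change was -0.69, against 0.10 over all genes, and -1.79 against -0.98 with adipocyte scaling. edgeR called 0 of the 50 and 0.00% of all genes. By its unadjusted p under 0.05, 22 of the 50 were lower and 4 higher, against 5.68% and 4.92% of all genes. DESeq2 called 12 lower and 4 higher, against 2.47% and 1.93% of all genes (4.40% in either direction). The 12 were Atp6v0d2, Cd68, Laptm5, Gla, Gusb, Hexa, Lgmn, Grn, Psap, Asah1, Mitf and Atp6v1a, and the 4 were Atp6v0e2, Atp6v1b1, Atp6v1c2 and Atp6v1g3. With the 4 libraries of these groups fitted alone, edgeR called 8 lower and 1 higher (and 1.46% of all genes tested). Without F-L replicate 1 or F-L replicate 2 it called 18 and 16 in all (and 3.12% and 2.50% of all genes tested).

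The widest differences in this comparison lay in both directions. The highest log2 fold changes of F-H-L against F-H were 7.51 ± 1.51 for Atp6v1g3, 5.18 ± 1.34 for Atp6v1b1 and 3.85 ± 1.05 for Atp6v1c2 (SE, edgeR adjusted p of 0.271 to 0.364). These 3 genes were at 0 to 1.14 CPM in F-H, and the first 2 rested on at most 2 counts per F-H library. Atp6v1e2, also within that range in F-H, had 1.84 ± 2.13 (SE) with overlapping libraries. The lowest log2 fold changes were -5.39 ± 0.74 for Atp6v0d2, -3.56 ± 0.50 for Cd68, -2.80 ± 0.51 for Laptm5, -2.69 ± 0.44 for Lgmn and -2.47 ± 0.37 for Gla (SE, edgeR adjusted p of 0.232 to 0.244). Markers of several cell types were lower as well: 17 of 18 for macrophages (median -2.66), 10 of 10 for T and NK cells (-2.14), 7 of 8 for mast cells (-2.94) and 10 of 12 for adipose progenitors (-0.58). Both F-H-L libraries lay below both F-H libraries for only 4 of the 10 T and NK cell markers. Their sums were 232 and 29.8 CPM under F-H and 30.3 and 25.9 CPM under F-H-L. Lipid-associated macrophage markers were lower in 11 of 12 tested (-2.43). All 12 testis germ cell markers were higher (4.27). So were 18 of 20 adipocyte (1.02), 10 of 10 endothelial (0.83) and 6 of 6 tested neutrophil markers (1.44). Both F-H-L libraries lay above both F-H libraries in 16, 8 and 3 of them. The 7 listed neutrophil genes summed to only 7.45 and 12.0 CPM under F-H and 31.6 and 23.7 CPM under F-H-L. The part of these cell types was not tested. The 7 genes with higher F-H-L values were Acp5, Atp6v0a4, Atp6v0e2, Atp6v1b1, Atp6v1c2, Atp6v1e1 and Atp6v1g3.

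The comparison of F-H-L with F-L asked what remained different from continuous low-fat feeding after cycling. edgeR called 0 of the 50 and 0.00% of all genes, with an unadjusted p under 0.05 for 7 higher and 2 lower genes, against 8.32% and 9.51% of all genes. DESeq2 called 2 of the 50, Atp6v1b1 and Atp6v1e2, both lower (of all genes DESeq2 called 9.73%, with 1.42% higher and 8.32% lower), and limma on log2(RPKM + 1) called 0. In 26 of the 50 (52.0%) both F-H-L libraries lay above both F-L libraries, and in 5 (10.0%) both lay below, against 29.8% and 23.8% of all genes, and the median log2 fold change was 0.41, against -0.09 over all genes (-2.75 against -3.10 with adipocyte scaling, a reversed direction). Genes with the highest log2 fold changes in F-H over F-L covered a continuous range of values in F-H-L over F-L. Psap (log2 fold change 1.06 ± 0.60), Grn (0.82 ± 0.38) and Hexa (0.55 ± 0.31) lay in its middle, and differences between genes were not tested. At its ends, Cd68 (log2 fold change of F-H-L over F-L 1.55 ± 0.47) and Laptm5 (1.59 ± 0.49) had both F-H-L libraries above F-L, whereas Atp6v0d2 (-0.01 ± 0.62), Lgmn (0.27 ± 0.41) and Gla (0.42 ± 0.35) had overlapping ranges (SE, edgeR adjusted p of 0.274 for the first 2 and 0.512 to 0.993 for the others). Markers of cell types differed in F-H-L over F-L too. Higher were 16 of 18 for macrophages (median 1.13), 20 of 20 for adipocytes (1.76) and 10 of 10 for endothelial cells (1.64). So were 10 of 10 for T and NK cells (1.89) and 11 of 12 for adipose progenitors (1.26). Lower were 12 of 12 for testis germ cells (-4.59) and 11 of 13 tested for epididymis principal cells (-2.47). Their part in the lysosome values was not tested. Comparisons of F-H and of F-H-L with F-L share the F-L libraries.

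**Figure D4:**
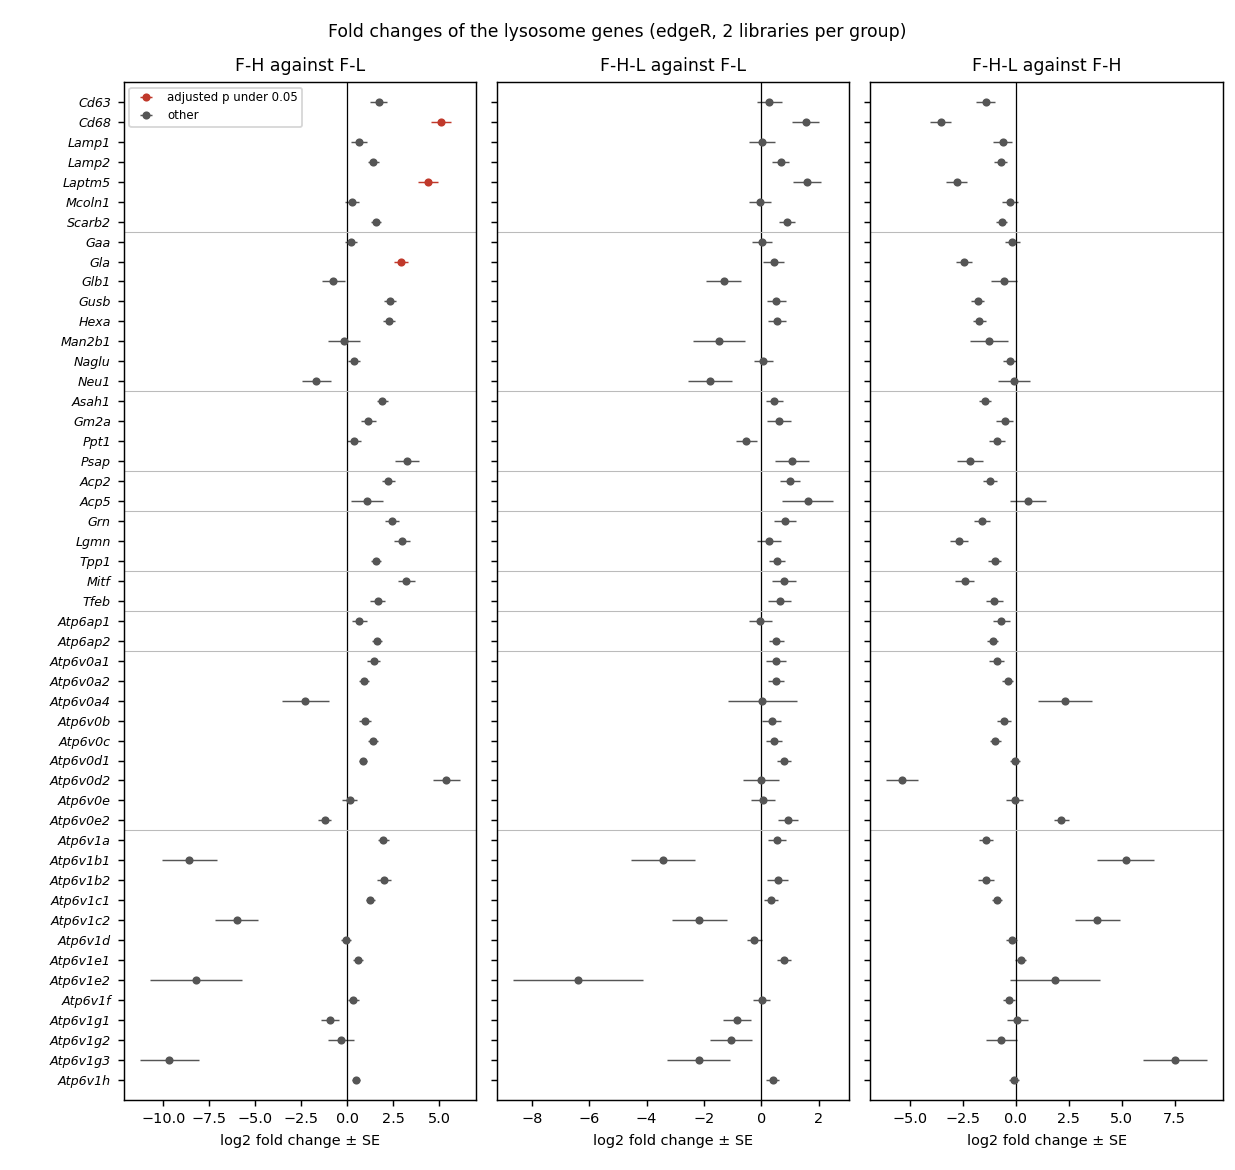
Log2 fold change ± SE (edgeR) of the 50 lysosome genes in the 3 comparisons, grouped by role in the same order as in the map of values by library; each panel has its own axis. Red marks the 3 genes past an adjusted p of 0.05, and the values of Atp6v1b1, Atp6v1g3 and Atp6v1e2 against F-H rest on at most 3 counts per F-H library.

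Across the 3 groups, 23 of the 50 genes had the order F-L, F-H-L, F-H with no overlap between neighbouring groups, which held for 8.71% of all genes tested. They included both transcription factors, Cd68, Laptm5, Lamp2, Scarb2, Psap, Grn and 8 pump subunits. The order F-H, F-H-L, F-L without overlap was found for 3, Atp6v1b1, Atp6v1c2 and Atp6v1g3, and for 9.04% of all genes. The order F-L, F-H, F-H-L was found for Acp5 and Atp6v1e1 and for 3.81% of all genes. None of the 50 had F-H-L lowest without overlap, against 0.677% of all genes with F-L in the middle and 1.43% with F-H in the middle. These counts describe the order of 6 libraries and carry no test.

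Genes with and without the E-box in the promoter had wide and overlapping ranges of difference. The median log2 fold change in F-H over F-L was 0.65 over the 11 genes with CACGTG, from -0.76 (Glb1) to 2.96 (Lgmn), and 1.27 over the 32 genes whose promoters lacked it, from -9.69 to 5.11. In F-H-L against F-H, both F-H-L libraries lay below both F-H libraries for all 11 genes with the element. The same held for 23 of the 32 without it and for 25.6% of all genes tested. In F-H over F-L, both F-H libraries lay above both F-L libraries in 6 of the 11 and 21 of the 32, against 27.0% of all genes. In F-H-L over F-L, both F-H-L libraries lay above both F-L libraries in 2 of the 11 and 19 of the 32, against 29.8%. The 4 copies before Lamp1 went with a log2 fold change of 0.65, and the promoters of Cd68, Laptm5, Mitf and Psap held no CACGTG in these windows.

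Other lysosome genes gave the wider setting. Of all 22289 genes tested in F-H against F-L, edgeR called 0.615% higher. It called none with median-ratio size factors, with the 2 groups alone or with a replicate block. Of 29 tested hydrolases and activators outside the 50, 4 rose in F-H over F-L, the acid lipase Lipa, the phospholipase Pla2g15 and the cathepsins Ctsk and Ctss, and none fell. Lipa, which releases fatty acids from stored neutral lipid in lysosomes, was at 66.2 and 42.4 CPM under F-L, 881 and 663 CPM under F-H, and 91.1 and 70.1 CPM under F-H-L (log2 fold change 3.83 ± 0.41, SE, edgeR adjusted p = 0.0447). Of 17 tested genes of membrane transport, 4 rose: Tcirg1, Gpnmb, Npc1 and Tpcn2. Tcirg1 encodes the a3 subunit of the proton pump used by osteoclasts and macrophages, and it was at 17.8 and 17.7 CPM under F-L, 303 and 224 CPM under F-H, and 48.3 and 47.1 CPM under F-H-L (3.89 ± 0.29, edgeR adjusted p = 0.0447). Of 20 genes of biogenesis and sorting, 2 rose, Fnip2, a partner of folliculin, and Igf2r, the mannose-6-phosphate receptor that delivers hydrolases. The MiT/TFE member Tfe3 was at 24.0 and 21.1 CPM under F-L, 80.9 and 59.4 CPM under F-H, and 40.8 and 33.5 CPM under F-H-L and did not pass (1.64 ± 0.29, edgeR adjusted p = 0.0639). Of the 7 tested pump assembly factors none passed, and the median was 0.61. Lipa and Gpnmb are also used as markers of lipid-laden macrophages.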

How the data were processed

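Messenger RNA of epididymal fat was sequenced in 6 libraries. Per the file headers, the deposited table gives raw counts and RPKM for each gene with its Length in bases (unit: other). The authors' RPKM matched a division of counts by length and by the summed counts within a relative 1e-06 in 100% of genes over 50 counts. The submitters' processing notes list HISAT2 2.1.0, HTSeq, bcl2fastq and build mm10 without roles. Strand setting and annotation release: not given in the sources used here. A count of 0 allows up to 0.0537 to 0.0754 CPM (3 counts; counting error only).

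In R 4.3.3, edgeR 4.0.16 was fitted to the counts of all 6 libraries with a term per group. Settings were filterByExpr (22289 genes), TMM and the quasi-likelihood test, with 3 residual degrees of freedom. A run on simulated data came first. Spread between its libraries was set lower than in these data, so it cannot show how the test performs here. Adjusted p is by Benjamini-Hochberg over all genes, called under 0.05. Tests are two-sided, and SE is the log2 fold change over the square root of F. Alternatives were other scalings, no low-count filter, the 2 groups alone, a replicate block, each library left out, limma 3.58.1 on log2(RPKM + 1) or log2(RPKM + 0.1), and DESeq2 1.42.0. Genes described in full were those called, the 3 with the smallest p per role and comparison, and a fixed set of names. Other genes are given by values or ranges. Members and lists were chosen with earlier results of these data known, and the TCACGTG search and the promoter windows were chosen after the data were seen. Promoters came from RefSeq, with no entry for Asah1, Atp6v0a2, Atp6v0d2, Atp6v1b2, Atp6v1c1, Atp6v1g1 and Atp6v1h. Acp3, Teddm1 and Plin2 of the other lists are not analysed here. Atp6v0a3, listed among assembly genes, is another symbol of Tcirg1, which is reported under that name.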

Additional observations from a re-analysis of the deposited data

How the results depend on the processing

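With 2 libraries a group the number of calls moved widely between settings, and these bulk values cannot separate tissue composition from expression per cell. In F-H against F-L, with 193 of all genes and 3 lysosome genes called, the counts were 0 and 0 with median-ratio factors and with the 2 groups alone, 6025 and 28 with no low-count filter, 6019 and 28 with DESeq2, 360 and 9 with limma on log2(RPKM + 1), 645 and 12 with limma on log2(RPKM + 0.1), and 3484 and 5 with adipocyte scaling. Leaving out 1 library gave 0 to 5799 of all genes and 0 to 33 lysosome genes. In F-H-L against F-L, with 0 and 0 called, the counts were 5453 and 9 with adipocyte scaling, 3910 and 9 with no low-count filter and 2233 and 2 with DESeq2, and 0 to 3508 and 0 to 9 with 1 library left out. In F-H-L against F-H, also with 0 and 0, they were 1759 and 17 with no low-count filter, 901 and 16 with DESeq2, 289 and 9 with the 2 groups alone, and 0 to 828 and 0 to 18 with 1 library left out. With adipocyte scaling, all 5 lysosome genes called in F-H against F-L were lower, and 15.6% of all genes tested were called. All 9 called in F-H-L against F-L were lower too, with 24.5% of all genes called. With no low-count filter, 42612 genes were tested, and 14.1%, 9.18% and 4.13% were called in the 3 comparisons in turn. Limma on log2(RPKM + 1) and log2(RPKM + 0.1) called 1.62% and 2.89% of all genes in F-H against F-L. The cause of these shifts in number was not tested.

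The median log2 fold change of the 50 genes in F-H against F-L was 0.82 and 0.83 with limma at the pseudocounts 1 and 0.1, -0.91 with adipocyte scaling, and 0.92 to 1.21 with 1 library left out. In F-H-L against F-L it was 0.29 with median-ratio factors, 0.30 with DESeq2, 0.15 and 0.17 with limma, -2.75 with adipocyte scaling, and 0.22 to 0.56 with 1 library left out. In F-H-L against F-H it was -1.79 with adipocyte scaling and -0.78 to -0.57 with 1 library left out.

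Adipocyte scaling, which moved the median of all genes as well, reversed single genes. In F-H against F-L the log2 fold changes became -1.61 for Atp6ap1, -0.33 for Atp6ap2, -0.79 for Atp6v0a1, -0.57 for Atp6v0c, -1.16 for Atp6v0d1, -0.16 for Atp6v1b2, -0.42 for Gm2a, -1.58 for Lamp1, -0.44 for Lamp2, -0.24 for Scarb2, -0.40 for Tfeb and -0.42 for Tpp1. In F-H-L against F-L they became -1.80 for Acp2, -0.044 for Acp5, -2.45 for Asah1, -2.55 for Atp6ap2, -2.78 for Atp6v0a1, -2.55 for Atp6v0a2, -3.44 for Atp6v0a4, -2.32 for Atp6v0d1, -1.89 for Atp6v0e2, -2.71 for Atp6v1b2, -2.28 for Atp6v1e1, -0.97 for Cd68, -2.11 for Gm2a, -2.36 for Grn, -2.48 for Hexa, -3.29 for Lamp1, -2.26 for Lamp2, -1.01 for Laptm5, -2.97 for Lgmn, -1.80 for Mitf, -1.91 for Psap, -2.02 for Scarb2, -2.58 for Tfeb and -2.53 for Tpp1. In F-H-L against F-H that of Acp5 became -0.51. Other reversals were of values near 0 in F-H-L against F-L. They were -0.071, -0.056, -0.14 and -0.26 for Atp6v0a4 and -0.090, -0.077, -0.17 and -0.17 for Lamp1 with median-ratio factors, DESeq2 and limma at both pseudocounts, and 0.024 for Atp6ap1 and 0.048 for Atp6v0d2 with no low-count filter. With 1 library left out, values ran from -0.44 to 0.51 for Atp6ap1, -0.82 to 0.73 for Atp6v0d2, -1.21 to 1.10 for Atp6v0a4 and -0.33 to 0.46 for Lamp1. Of all values of single genes under the alternatives, 1033 kept direction and side of the threshold, 211 came to pass it, 24 no longer passed and 61 reversed.

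Between libraries of equal replicate number, deviations from the group means correlated at 0.024 for F-L and F-H. The value was -0.14 for F-L and F-H-L and -0.019 for F-H and F-H-L. With 2 libraries a group, this check cannot decide whether the libraries were paired. With the replicate block, 0 of all genes and 0 lysosome genes were called in F-H against F-L, in F-H-L against F-L and in F-H-L against F-H, the medians were 1.06, 0.42 and -0.70, and the value of Atp6ap1 in F-H-L against F-L reversed to 0.034. With the numbers crossed between F-L and F-H-L, an alternative chosen after seeing the data, 0 of all genes and 0 lysosome genes were called.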
